A study of Mus musculus with 8 samples.

Results

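The small-subunit processome and nucleolar genes were 40 named genes that encode proteins of early ribosome assembly, matched by gene name in the deposited table of counts. All 40 were among its 55247 rows, and all 40 passed the filter on low counts, which kept 11616 genes. The list was put together after *Tbl3* and *Fcf1*, whose proteins belong to the same complex, had stood out between bexarotene and vehicle in these libraries. Their differences between the groups chose the list, so every value of bexarotene against vehicle below is a description. Calls of the fit over all genes are counted once for the 40 genes, beside the share over all genes, and nothing is supported with them.

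The small-subunit processome is a large particle that forms in the nucleolus on the RNA that RNA polymerase I transcribes, and it prepares the part of that RNA that becomes the RNA of the small ribosomal subunit. Proteins join in preformed modules: the UTP-A module binds the leading spacer of the transcript first, the UTP-B module and the U3 small nucleolar ribonucleoprotein (U3 snoRNP) follow, and the U3 RNA pairs with the precursor while enzymes modify and cut it. Dividing cells such as lymphoma cells make many ribosomes, and MYC is known to drive many of these genes.

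The libraries came from back skin of female wild-type C57BL/6J mice (the label's name, C57BL/6JJmsSlc in the study's methods), 8 weeks old, in which EL4, a line of mouse T-cell lymphoma cells, was growing. Each mouse received 100 µL of a suspension of 2000000 EL4 cells per mL under the skin on Day 0. The Bexarotene group (4 mice) was given 0.1 mg of bexarotene, which binds retinoid X receptors, into the peritoneum on Day 14, and the Vehicle group (4 mice) was given dimethyl sulfoxide in corn oil. Tumors were taken on Day 16, so each library holds RNA of lymphoma cells and of mouse skin together, and whether the lymphoma cells or the host gave the RNA of a gene cannot be told apart.

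Total counts ranged from 8518428 to 18340980 with bexarotene and from 16196852 to 24020342 with vehicle, but the effective library sizes after TMM scaling (trimmed mean of M-values, which equalizes the bulk of genes) were 6338842 in Bexarotene 1 and 2367759 in Bexarotene 2, against 18313729 to 50359618 in the other 6. Although the libraries were made after ribosomal RNA depletion, *Rn18s*, the 18S ribosomal RNA, held 54.8% to 58.6% of counts with bexarotene and 50.8% to 59.8% with vehicle. Rows with no gene name held another 34.2% and 36.5% in Bexarotene 1 and 2, and 27.0% to 29.2% in the other 6. The 40 genes together had 2463 and 861 counts in Bexarotene 1 and 2, and 6619 to 20849 counts in the others. In Bexarotene 2, 10 of the 40 genes had under 10 counts and 33 had under 20, so values there carry the largest counting error, and results that rest on these 2 libraries are given with and without them. T-lineage markers were present in every library, with a summed level of 207 to 266 CPM (counts scaled to a common library size) with bexarotene and 204 to 255 CPM with vehicle. The keratinocyte markers summed to 33.4 to 91.8 CPM with bexarotene and to 1.24 to 303 CPM with vehicle, and *Krt5*, a keratin of basal skin cells, was at 0.368 CPM in Vehicle 4, a library with almost no sign of epidermis. All CPM below are scaled by TMM.

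Across the 40 genes, bexarotene and vehicle differed little. The log2 fold change, bexarotene over vehicle, had a median of 0.06 over the 40 genes, beside −0.03 over all genes tested, and it lay between −0.83 (*Fcf1*) and 0.72 (*Tbl3*). On the TMM scale 23 genes were higher and 17 lower with bexarotene, while 46.5% of all genes tested were higher. Scaled by total counts alone, all genes had a median of −0.66 and the 40 genes a median of −0.63, and 0 of the 40 were higher, so directions are given relative to the bulk of genes. The difference was within 0.25 on the log2 scale for 26 of the 40 genes, and for 6527 of all 11616 genes tested.

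edgeR's quasi-likelihood test called 0 of the 40 genes at an adjusted p under 0.05 (Benjamini-Hochberg over 11616 genes), beside 0% of all genes, and the smallest adjusted p of any gene was 0.976. At an unadjusted p under 0.05 it gave 3 of the 40 (*Tbl3*, *Fcf1* and *Noc4l*), where 3.68% of all genes passed. DESeq2 and limma-voom also called 0 genes after adjustment. Without it DESeq2 gave 2 of the 40 (*Tbl3* and *Fcf1*), beside 451 of all 11616 genes. By limma-voom it was 3 of the 40 (*Tbl3*, *Fcf1* and *Noc4l*), beside 399 of all 11616 genes. All 4 bexarotene mice were above all 4 vehicle mice for 2 of the 40 genes (*Tbl3* and *Noc4l*), which held for 1.41% of all genes, and below them for 1 (*Fcf1*), which held for 1.42%. Because this contrast chose the list, nothing is read from these counts.

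**Figure D1:**
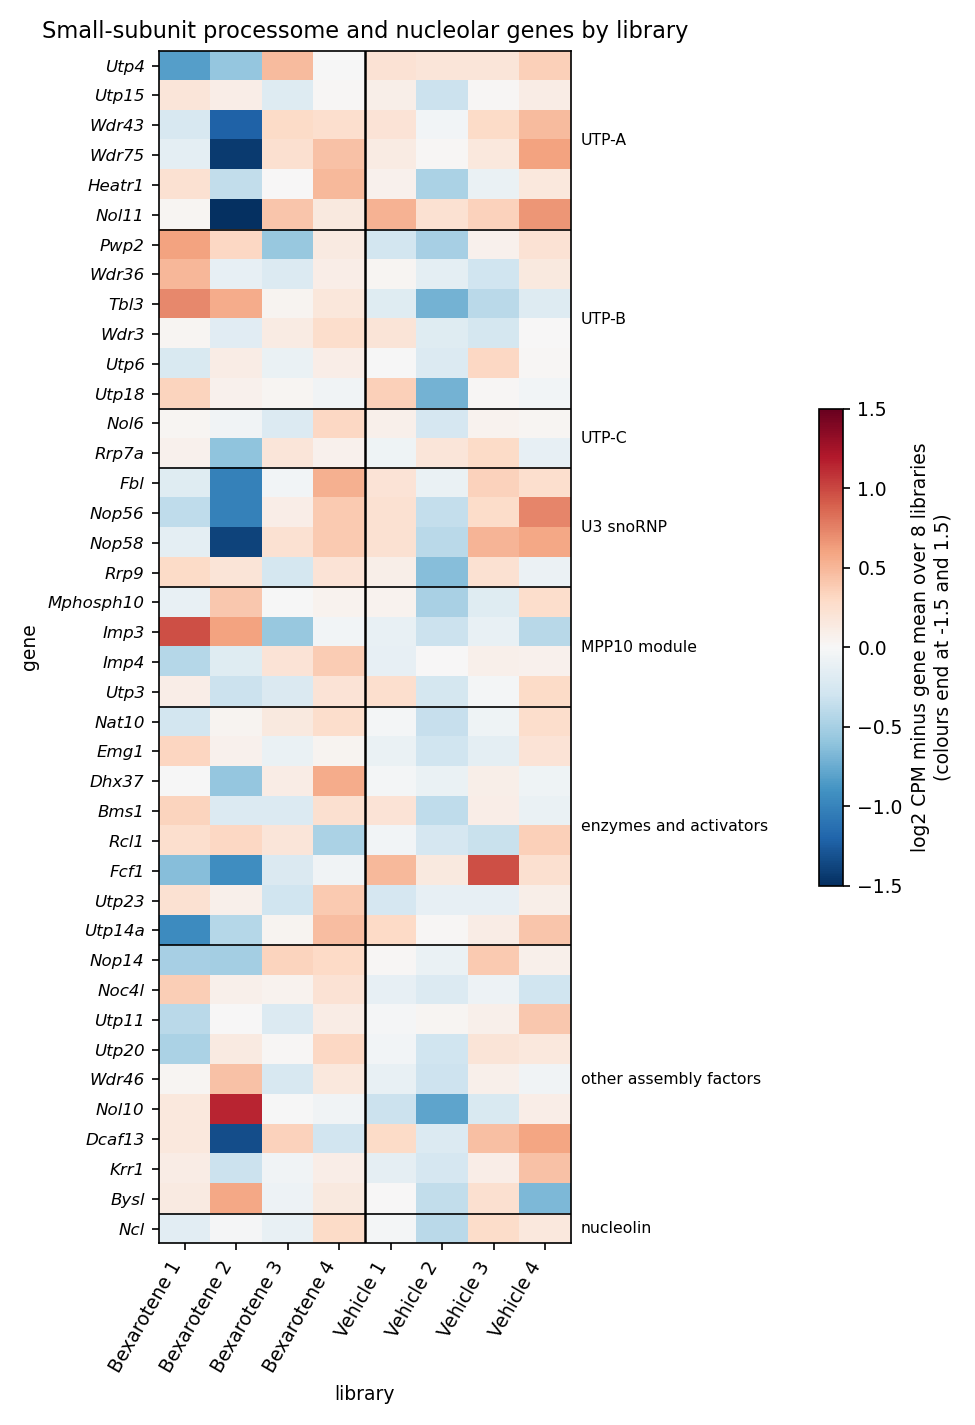
Level of each of the 40 genes (down the page, grouped by role) in each of the 8 libraries (across, Bexarotene 1 to 4 and then Vehicle 1 to 4), as log2 CPM minus the gene's mean over the 8 libraries, with red above and blue below that mean. Bexarotene 2 has both deep blue cells (*Wdr43*, *Wdr75*, *Nol11*, *Nop58*, *Dcaf13*) and the deepest red one (*Nol10*, 15.6 CPM), and Vehicle 2 is below the gene mean for most genes.

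The 6 genes of the UTP-A module had a median log2 fold change of −0.24, with 2 higher and 4 lower, from −0.43 to 0.22. *Nol11* (chromosome 11, 107057489 to 107080207), a UTP-A subunit of animals that also takes part in RNA polymerase I transcription, was at 4.73, 0.845, 6.25 and 5.14 CPM in Bexarotene 1 to 4, against 6.69, 5.47, 5.95 and 7.43 CPM in Vehicle 1 to 4. The groups overlapped, and the lowest library, Bexarotene 2, held only 2 counts of the gene (exact Poisson 95% interval, 0.102 to 3.05 CPM). Its log2 fold change was −0.43 (SE 0.31), and it came to −0.24 without Bexarotene 2. *Utp4* (chromosome 8, 107620268 to 107649720), known as cirhin and mutated in a childhood liver disease in humans, was at 5.36, 6.34, 13.3 and 9.48 CPM in Bexarotene 1 to 4, against 11.1, 10.8, 10.9 and 12.3 CPM in Vehicle 1 to 4. Here the vehicle mice lay close together, while Bexarotene 1, 2 and 4 lay below all of them and Bexarotene 3 above all of them, and the log2 fold change was −0.32 (SE 0.25).

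*Wdr43* (UTP5 in yeast), a WD-repeat subunit, averaged 11.9 ± 4.80 CPM with bexarotene and 15.3 ± 2.26 CPM with vehicle (SD, n = 4 each), and it was at 5.49 CPM in Bexarotene 2. *Wdr75* (UTP17 in yeast) averaged 4.51 ± 2.08 CPM with bexarotene and 5.62 ± 1.10 CPM with vehicle (SD, n = 4 each). *Heatr1* (UTP10 in yeast), a long helical-repeat protein, averaged 14.9 ± 3.70 CPM with bexarotene and 13.1 ± 2.39 CPM with vehicle, and *Utp15* averaged 7.25 ± 0.79 CPM with bexarotene and 7.01 ± 0.92 CPM with vehicle. For each of these 4 genes the groups overlapped and the difference was within about 1 SD of the bexarotene mice. Without Bexarotene 1 and 2 the median of the UTP-A genes was 0.03.

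The promoters of *Utp4*, *Wdr43* and *Nol11* are shown because these UTP-A genes hold an E-box, the CACGTG element that MYC and related factors bind. It lies within the 300 bases from 250 before to 50 after the start site. *Wdr75*, *Heatr1* and *Utp15* of the same module hold no CACGTG there, and *Wdr75*, like *Wdr43* and *Nol11*, was lowest in Bexarotene 2. *Nop56* and *Nop58*, whose levels were correlated with those of the genes shown, hold none either. The sequences are those of RefSeq on GRCm38.p6, written 5′ to 3′ on the strand of the gene, with the E-box and, in *Utp4*, 2 copies of the ETS core in capitals. The first base of the E-box lies 16 bases past the start site in *Utp4*, 18 bases past it in *Wdr43* and 43 bases before it (−43) in *Nol11*.
*Utp4* promoter (chr8:106893390-106893689, plus strand): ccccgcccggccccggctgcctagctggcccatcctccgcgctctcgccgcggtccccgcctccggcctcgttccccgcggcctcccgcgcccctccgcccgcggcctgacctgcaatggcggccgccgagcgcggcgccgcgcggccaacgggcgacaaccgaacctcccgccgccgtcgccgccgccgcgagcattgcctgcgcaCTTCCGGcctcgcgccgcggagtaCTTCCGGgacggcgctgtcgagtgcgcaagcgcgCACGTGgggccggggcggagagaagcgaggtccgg
*Wdr43* promoter (chr17:71615965-71616264, plus strand): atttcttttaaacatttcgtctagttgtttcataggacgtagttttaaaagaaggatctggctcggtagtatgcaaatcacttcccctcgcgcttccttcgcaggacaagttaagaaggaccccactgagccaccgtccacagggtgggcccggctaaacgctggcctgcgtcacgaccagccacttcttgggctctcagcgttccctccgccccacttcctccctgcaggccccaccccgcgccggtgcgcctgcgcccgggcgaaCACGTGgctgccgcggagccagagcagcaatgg
*Nol11* promoter (chr11:107189332-107189631, minus strand): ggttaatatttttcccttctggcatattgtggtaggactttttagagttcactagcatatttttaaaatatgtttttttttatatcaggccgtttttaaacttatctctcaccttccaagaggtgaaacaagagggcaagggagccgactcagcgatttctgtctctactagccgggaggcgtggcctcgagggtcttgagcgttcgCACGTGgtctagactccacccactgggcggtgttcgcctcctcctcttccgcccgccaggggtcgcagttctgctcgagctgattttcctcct

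Promoters of this kind were found for 31 of the 40 genes, and *Tbl3*, *Fcf1*, *Fbl*, *Nol6*, *Utp6*, *Utp11*, *Utp23*, *Wdr36* and *Dcaf13* were not matched. CACGTG, which reads the same on both strands, was in 8 of the 31 (25.8%), beside 8.09% of 27025 genes with a promoter of this length. The 8 were *Utp4*, *Wdr43*, *Nol11*, *Utp18*, *Rrp7a*, *Imp4*, *Utp20* and *Wdr46*. The ETS core CCGGAAG, written on the other strand as CTTCCGG, was in 12 of the 31 (38.7%) and in 9.93% of all genes, and the nuclear receptor half-site AGGTCA, written on the other strand as TGACCT, was in 2 of the 31 (6.45%, *Nop58* and *Utp4*) and in 18.1% of all genes. CTCGCGA, written on the other strand as TCGCGAG and an element of many housekeeping promoters, was in 2 of the 31 (6.45%) and in 2.22% of all genes. None of these motifs contains another, and the median GC content was 59.3% over the 31 promoters and 52.7% over all, which by itself changes how often GC-rich letters occur. A gene counted if any of its promoters matched. The 31 genes had 31 promoters and all 27025 genes had 32851, which can raise the shares over all genes. The log2 fold change had a median of −0.03 over the 8 genes with CACGTG and 0.10 over the 23 without it. For the ETS core it was 0.15 over the 12 genes with it and −0.01 over the 19 without it. The 2 genes with AGGTCA had a median of −0.30 and the 2 with CTCGCGA −0.18, each beside 0.10 over the 29 without. A match of letters is a description and not a bound site.

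In the UTP-B module, which binds after UTP-A, the median was 0.15, with 5 of 6 genes higher, from −0.07 to 0.72. *Tbl3* (chromosome 17, 24916923 to 24926634; UTP13 in yeast), a WD-repeat subunit, was at 8.99, 8.02, 5.57 and 6.13 CPM in Bexarotene 1 to 4, against 4.79, 3.28, 4.10 and 4.72 CPM in Vehicle 1 to 4. All 4 bexarotene mice were above all 4 vehicle mice, and Bexarotene 1 and 2 were the highest. Its log2 fold change of 0.72 (SE 0.21) was the highest of the 40 genes, and it was between 0.58 (without Bexarotene 1) and 0.86 (without Bexarotene 3) when 1 library was left out, and 0.47 without Bexarotene 1 and 2. Scaled by total counts alone it was −0.11, where all genes had a median of −0.66.

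The partners of *Tbl3* in the module were nearer to 0. *Pwp2*, around which the module is built, averaged 5.38 ± 1.71 CPM with bexarotene and 4.43 ± 0.99 CPM with vehicle (SD, n = 4 each), and *Wdr36*, a gene studied in human glaucoma, averaged 8.35 ± 1.93 CPM with bexarotene and 7.49 ± 1.01 CPM with vehicle. *Wdr3*, the pair of *Tbl3* in the yeast module (UTP12), averaged 5.99 ± 0.74 CPM with bexarotene and 5.50 ± 0.79 CPM with vehicle. *Utp6* and *Utp18*, which complete the module, had log2 fold changes of −0.07 and 0.12, and the 5 partners together lay between −0.07 and 0.22. UTP-B had a median of 0.02 without Bexarotene 1 and 2.

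The pair of UTP-C genes, *Nol6* (UTP22 in yeast) and *Rrp7a*, had log2 fold changes of 0.06 and −0.07. *Nol6* averaged 12.5 ± 1.96 CPM with bexarotene and 12.1 ± 1.22 CPM with vehicle (SD, n = 4 each).

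The U3 snoRNP genes, whose first 3 products are shared by all box C/D snoRNPs, had a median of −0.25, with 1 of 4 higher. *Fbl* (chromosome 7, 27869135 to 27878694), fibrillarin, the methyltransferase of the particle, was at 12.8, 7.18, 14.1 and 21.2 CPM in Bexarotene 1 to 4, against 16.8, 13.6, 18.5 and 17.4 CPM in Vehicle 1 to 4. *Nop56* (chromosome 2, 130116350 to 130121233), a scaffold that pairs with Nop58 around the snoRNA, was at 11.2, 7.18, 15.7 and 19.2 CPM in Bexarotene 1 to 4, against 17.1, 11.4, 17.7 and 24.3 CPM in Vehicle 1 to 4. *Nop58* (chromosome 1, 59724130 to 59758203), the other scaffold, was at 12.2, 5.07, 15.8 and 17.7 CPM in Bexarotene 1 to 4, against 15.8, 10.1, 19.1 and 20.1 CPM in Vehicle 1 to 4. All 3 genes had the same order in the bexarotene mice, with Bexarotene 2 lowest and Bexarotene 4 highest, and the groups overlapped.

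The log2 fold changes were −0.21 (SE 0.26) for *Fbl*, −0.35 (SE 0.29) for *Nop56* and −0.29 (SE 0.31) for *Nop58*. Without Bexarotene 1 and 2 they were 0.10, −0.01 and 0.05. *Rrp9* (chromosome 9, 106353162 to 106362623), the protein that marks the U3 particle among box C/D snoRNPs, was at 5.84, 5.49, 3.98 and 5.52 CPM in Bexarotene 1 to 4, against 5.10, 3.03, 5.62 and 4.49 CPM in Vehicle 1 to 4. It did not share the low value of Bexarotene 2, and its log2 fold change was 0.16 (SE 0.23). The U3 snoRNP median was 0.05 without Bexarotene 1 and 2.

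**Figure D2:**
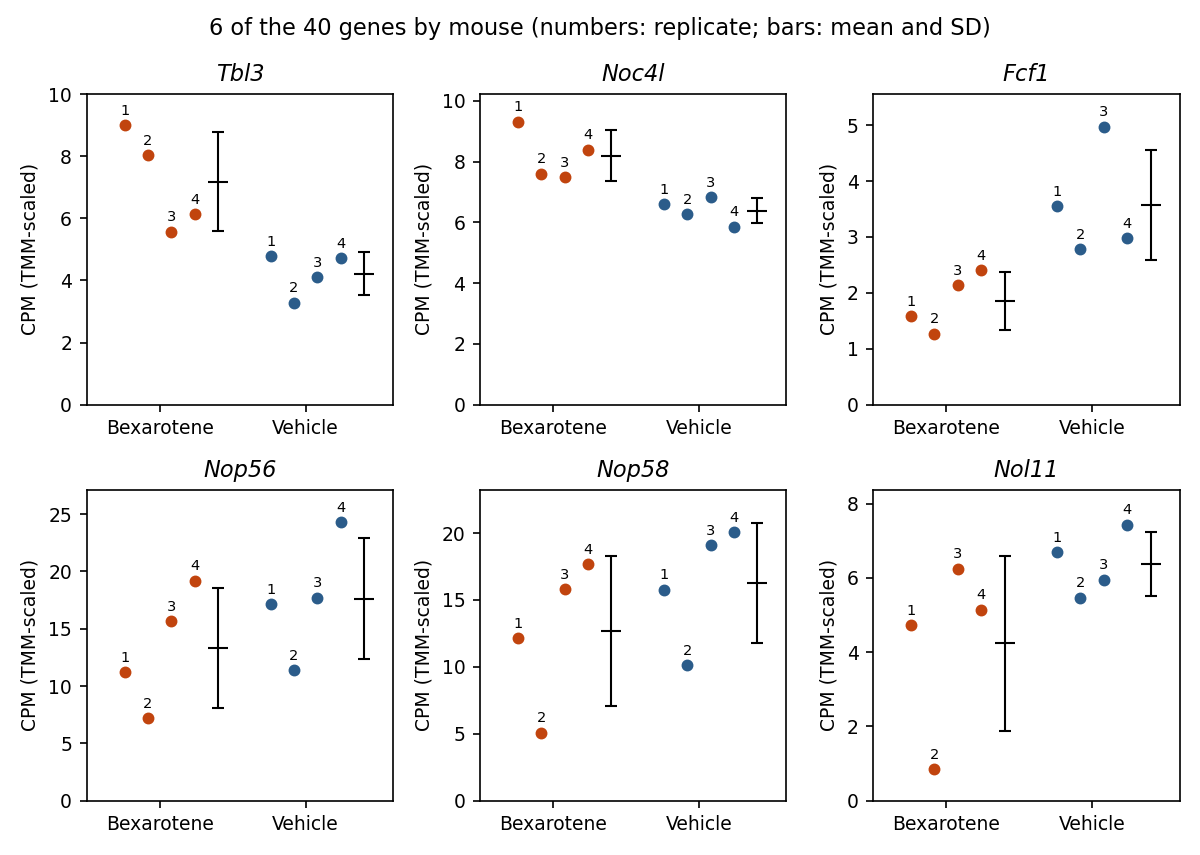
TMM-scaled CPM (vertical axis, from 0) of 6 of the 40 genes in each mouse, with bexarotene mice on the left and vehicle mice on the right of each panel, the replicate number at each point and bars for mean and SD (n = 4 each). *Tbl3* and *Noc4l* in all bexarotene mice lie above all vehicle mice and *Fcf1* below them, while *Nop56*, *Nop58* and *Nol11* overlap and have their lowest point in Bexarotene 2.

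Of the MPP10 module, which joins the U3 RNA to the precursor, 3 of 4 genes were higher, with a median of 0.09. *Imp3* (chromosome 9, 56844759 to 56845682), which helps U3 pair with the precursor, was at 6.00, 4.65, 2.01 and 2.92 CPM in Bexarotene 1 to 4, against 2.80, 2.39, 2.79 and 2.24 CPM in Vehicle 1 to 4. Bexarotene 1 and 2 were above all other mice and Bexarotene 3 below all of them, and the log2 fold change of 0.50 (SE 0.32) came to 0.16 without Bexarotene 1 and to −0.05 without Bexarotene 1 and 2. *Imp4*, its partner, averaged 9.33 ± 2.36 CPM with bexarotene and 9.19 ± 0.57 CPM with vehicle (SD, n = 4 each). *Mphosph10*, the scaffold of the module, had a log2 fold change of 0.12, and *Utp3* (Sas10 in yeast), which binds it, had −0.10.

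The 8 enzymes and their activators had a median of 0.10, with 6 higher. *Fcf1* (chromosome 12, 85017671 to 85030077; UTP24 in yeast), the nuclease held to cut the precursor at the start of the small-subunit RNA, was the lowest of the 40 genes. It was at 1.58, 1.27, 2.14 and 2.41 CPM in Bexarotene 1 to 4, against 3.55, 2.79, 4.97 and 2.98 CPM in Vehicle 1 to 4, and all 4 bexarotene mice were below all 4 vehicle mice. These levels rest on 10, 3, 63 and 51 counts in the bexarotene mice, against 179, 56, 91 and 89 counts in the vehicle mice. Counting error alone gave Bexarotene 2 an exact Poisson 95% interval of 0.261 to 3.70 CPM, which reaches into the range of the vehicle mice, as does that of Bexarotene 1 (0.757 to 2.90 CPM). The log2 fold change was −0.83 (SE 0.27), it lay between −0.95 (without Bexarotene 4) and −0.65 (without Vehicle 3) when 1 library was left out, and it was −0.64 without Bexarotene 1 and 2.

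*Utp23*, the other protein of this nuclease family in the particle, had a log2 fold change of 0.23, opposite in sign to *Fcf1*. *Nat10*, which acetylates cytidines of the small-subunit RNA, averaged 6.40 ± 1.0 CPM with bexarotene and 6.05 ± 1.07 CPM with vehicle (SD, n = 4 each). *Emg1*, a methyltransferase that modifies a pseudouridine, averaged 6.02 ± 0.77 CPM with bexarotene and 5.35 ± 0.82 CPM with vehicle. *Dhx37*, the helicase that in yeast takes U3 off the precursor, averaged 8.02 ± 2.53 CPM with bexarotene and 7.48 ± 0.43 CPM with vehicle, and *Utp14a*, which activates that helicase, averaged 3.14 ± 1.31 CPM with bexarotene and 4.02 ± 0.52 CPM with vehicle. The groups overlapped for all of these. *Bms1*, a GTPase, and *Rcl1*, its partner, had log2 fold changes of 0.10 and 0.09.

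Among the 9 other assembly factors, 5 were higher and the median was 0.01, yet this group held some of the widest values. *Noc4l* (chromosome 5, 110796284 to 110801283; NOC4 in yeast), which forms a pair with Nop14, was at 9.31, 7.60, 7.48 and 8.40 CPM in Bexarotene 1 to 4, against 6.59, 6.27, 6.83 and 5.86 CPM in Vehicle 1 to 4. All 4 bexarotene mice were above all 4 vehicle mice, and both groups were narrow. Bexarotene 2 held 18 counts of the gene, with an exact Poisson 95% interval of 4.51 to 12.0 CPM, which spans the range of the vehicle mice. The log2 fold change of *Noc4l* was 0.36 (SE 0.16), and 0.32 without Bexarotene 1 and 2. *Nop14* itself had a log2 fold change of −0.07, and its groups overlapped.

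*Nol10* (chromosome 12, 17398459 to 17480096; ENP2 in yeast) was at 7.89, 15.6, 7.04 and 6.79 CPM in Bexarotene 1 to 4, against 5.60, 4.03, 6.01 and 7.53 CPM in Vehicle 1 to 4. Bexarotene 2, with 37 counts, stood far above the other 7 mice, and the log2 fold change of 0.58 (SE 0.28) was 0.31 without it. *Bysl* (chromosome 17, 47910256 to 47922417), bystin, which stays on the particle into the cytoplasm, was at 7.10, 9.71, 6.12 and 7.17 CPM in Bexarotene 1 to 4, against 6.47, 4.97, 7.65 and 4.02 CPM in Vehicle 1 to 4, with a log2 fold change of 0.33 (SE 0.23), which was 0.23 without Bexarotene 2. *Dcaf13* (chromosome 15, 38976260 to 39010251; SOF1 in yeast) was at 4.89, 1.69, 5.61 and 3.58 CPM in Bexarotene 1 to 4, against 5.36, 3.78, 6.01 and 6.63 CPM in Vehicle 1 to 4, with a log2 fold change of −0.36 (SE 0.28), which was −0.22 without Bexarotene 2 and its 4 counts. For *Bysl* and *Dcaf13* the groups overlapped, and the extreme bexarotene library was again Bexarotene 2.

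*Utp20*, a very long protein of the particle, averaged 14.5 ± 3.12 CPM with bexarotene and 14.4 ± 2.16 CPM with vehicle (SD, n = 4 each). *Utp11*, *Wdr46* (UTP7 in yeast) and *Krr1*, which complete the group, had log2 fold changes of −0.25, 0.16 and −0.07. *Ncl* (chromosome 1, 86272441 to 86287122), nucleolin, a major nucleolar protein that is not confined to the processome, was at 113, 125, 117 and 154 CPM in Bexarotene 1 to 4, against 124, 95.5, 154 and 142 CPM in Vehicle 1 to 4. The groups overlapped almost wholly and the log2 fold change was −0.01 (SE 0.21).

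**Figure D3:**
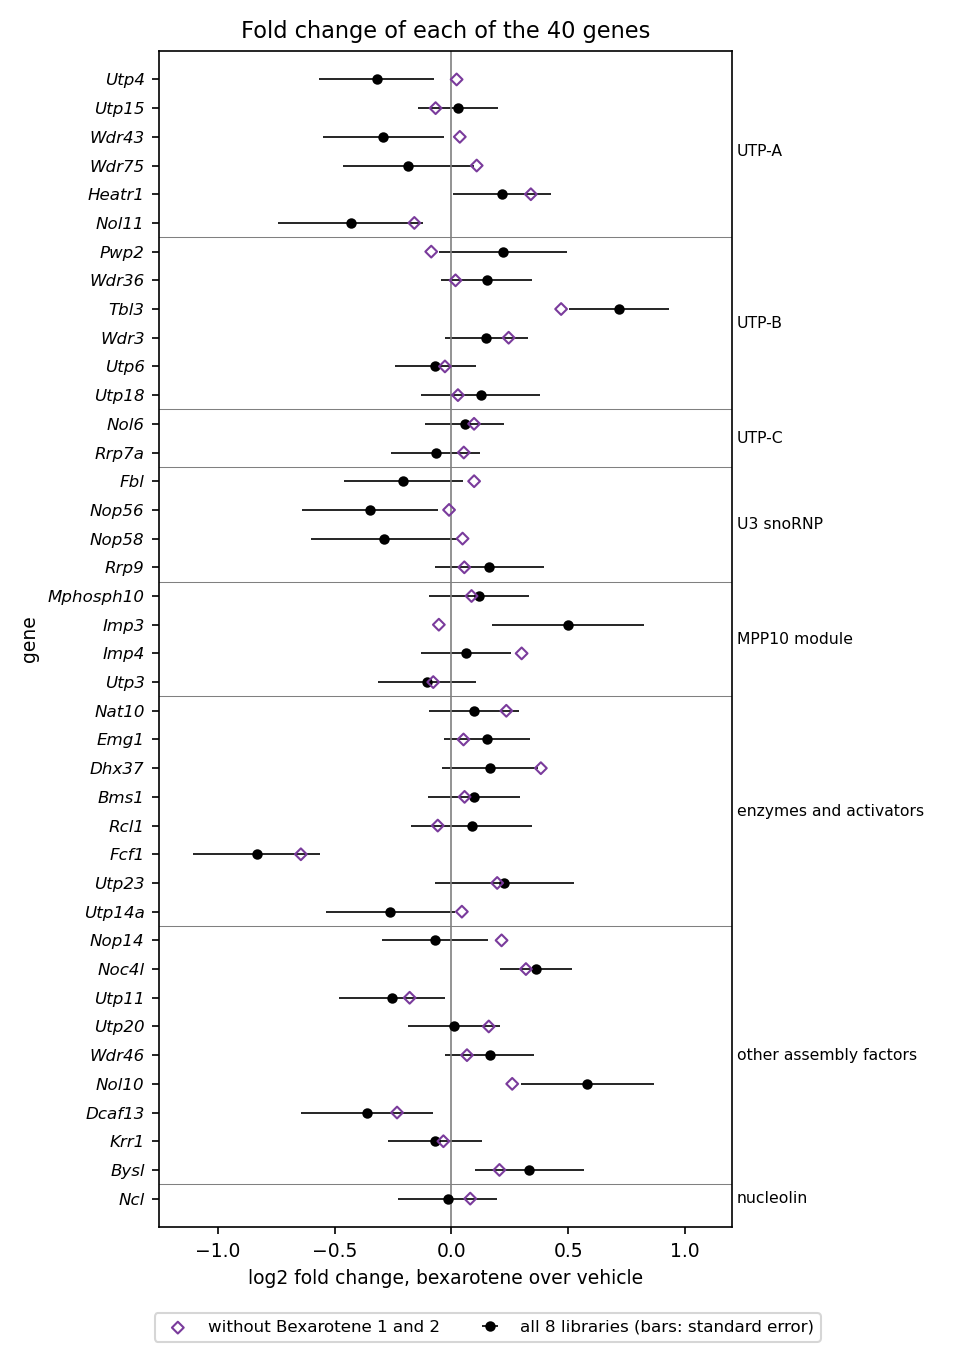
The log2 fold change of each of the 40 genes, bexarotene over vehicle, on the TMM scale (horizontal axis), with genes grouped by role down the page. Filled points with bars give all 8 libraries with the standard error, and open diamonds give the value without Bexarotene 1 and 2, which moves *Utp4*, *Wdr43*, *Fbl*, *Nop56*, *Nop58* and *Imp3* close to 0 and leaves *Tbl3* at 0.47 and *Fcf1* at −0.64.

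Levels between genes were compared per kilobase of the deposited gene length. *Ncl* was the highest of the 40, at 12.4 CPM per kb with bexarotene and 12.6 CPM per kb with vehicle, several times the median of the 40 genes, which was 1.45 CPM per kb in both groups. *Imp3*, a short gene, was next with bexarotene (4.21 ± 1.92 CPM per kb, SD, n = 4), followed by *Fbl* (3.27 ± 1.36) and *Nop56* (3.24 ± 1.27), and these 3 were within their spread of each other. With vehicle, *Nop56* was next after *Ncl* (4.28 ± 1.28 CPM per kb), followed by *Fbl* (3.92 ± 0.49), *Utp4* (3.19 ± 0.20) and *Fcf1* (3.11 ± 0.86), and here *Fbl* and *Utp4* lay apart by more than either SD, while the other neighbours named after *Ncl* did not. The low end was held by *Dcaf13* with bexarotene (0.364 CPM per kb) and *Utp23* with vehicle (0.368 CPM per kb). This order turns on the lengths used, since the deposited length of *Fbl* is 4224 bases and its canonical transcript in GENCODE vM39 has 1213, and that of *Dcaf13* is 10825 against 1572. Per kilobase of canonical transcript, a length tried after the data were seen, *Ncl* (15.4 CPM per kb with bexarotene and 15.5 with vehicle) and *Fbl* (11.4 with bexarotene and 13.7 with vehicle) came first, and *Utp23* was lowest in both groups (0.439 with bexarotene and 0.373 with vehicle).

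The coefficient of variation (CV) over the bexarotene mice had a median of 22.1% over the 40 genes, against 15.2% over the vehicle mice. It was larger with bexarotene for 28 of the 40 (70.0%), and for 72.4% of all genes tested. Counting error alone would give a median CV of 15.8% with bexarotene and 8.05% with vehicle for these genes. Bexarotene 3 and 4 alone, a choice made after the data were seen, had a median CV of 13.9%. In UTP-A the median CV was 40.9% with bexarotene and 14.1% with vehicle, and in the U3 snoRNP it was 40.5% with bexarotene and 26.0% with vehicle. Over Bexarotene 3 and 4 alone these were 12.1% for UTP-A and 18.6% for the U3 snoRNP. Over all genes tested the median CV was 33.2% with bexarotene, 20.9% with vehicle and 14.9% over Bexarotene 3 and 4 alone. A fall without Bexarotene 1 and 2 was therefore not particular to these modules, and a CV of 2 libraries is not like a CV of 4. UTP-B had 17.4% with bexarotene and 15.8% with vehicle.

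Library by library, the roles did not move as 1 block. Relative to the vehicle mean, the median of the 6 UTP-A genes was −0.39, −1.13, 0.04 and 0.03 on the log2 scale in Bexarotene 1 to 4, against 0.03, −0.24, −0.03 and 0.24 in Vehicle 1 to 4. The 4 U3 snoRNP genes stood at −0.37, −1.21, −0.14 and 0.24 in Bexarotene 1 to 4, against 0.02, −0.56, 0.22 and 0.21 in Vehicle 1 to 4. The 6 UTP-B genes stood at 0.50, 0.12, 0.00 and 0.21 in Bexarotene 1 to 4, against 0.14, −0.29, 0.04 and 0.12 in Vehicle 1 to 4. In Bexarotene 1 and 2, then, UTP-A and the U3 snoRNP were below the vehicle mean while UTP-B was above it, and in Bexarotene 3 and 4 these modules were near the vehicle mean or above it, except the U3 snoRNP in Bexarotene 3.

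Over all 40 genes the median stood at 0.03, −0.08, 0.00 and 0.21 in Bexarotene 1 to 4, against 0.01, −0.25, 0.07 and 0.17 in Vehicle 1 to 4. Bexarotene 2 had the lowest value of the 8 libraries for 13 genes and the highest for 4, so its spread ran both ways. Vehicle 2 had the lowest value for 13 genes and stood above the vehicle mean for 2 of 40, so it was low across roles. Summed over the 40 genes, of which *Ncl* is the largest part, the level was 389, 364, 399 and 480 CPM in Bexarotene 1 to 4, against 414, 329, 455 and 459 CPM in Vehicle 1 to 4.

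Summed markers of other cells also set some of these libraries apart. The 8 fibroblast markers summed to 911 and 1710 CPM in Bexarotene 1 and 2, within a range of 421 to 1710 CPM with bexarotene and 300 to 842 CPM with vehicle, although as single genes 5 of the 8 had a negative log2 fold change and 3 a positive one (median −0.32, from −0.73 to 1.14). The proliferation markers summed to 158, 139, 221 and 243 CPM in Bexarotene 1 to 4, against 232, 184, 236 and 229 CPM in Vehicle 1 to 4, with *Mki67* at 49.2 and 46.9 CPM in Bexarotene 1 and 2 and at 91.6 to 121 CPM in the other 6. Vehicle 2, low for most of the 40 genes, had the highest summed keratinocyte markers (303 CPM) and macrophage markers (76.6 CPM, against 22.8 CPM at the lowest vehicle mouse). The 6 neutrophil markers summed to 0.845 to 4.10 CPM with bexarotene and 3.82 to 6.26 CPM with vehicle, the 4 that could be tested all had negative log2 fold changes (median −0.83), and *Ly6g* was the 1 marker of any list at 0 in all 8 libraries. As single genes, all 7 keratinocyte markers tested were lower with bexarotene (median −1.09), as were 7 of 8 macrophage markers (−0.43). Of 6 skeletal muscle markers 5 were higher (median 0.83). The T-lineage, endothelial, adipocyte and proliferation markers had medians of 0.10, 0.05, 0.05 and −0.11. The part of cell mixture, depth or cell division in these values was not tested, and fewer cells of a type and less RNA per cell cannot be told apart in bulk tissue.

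**Figure D4:**
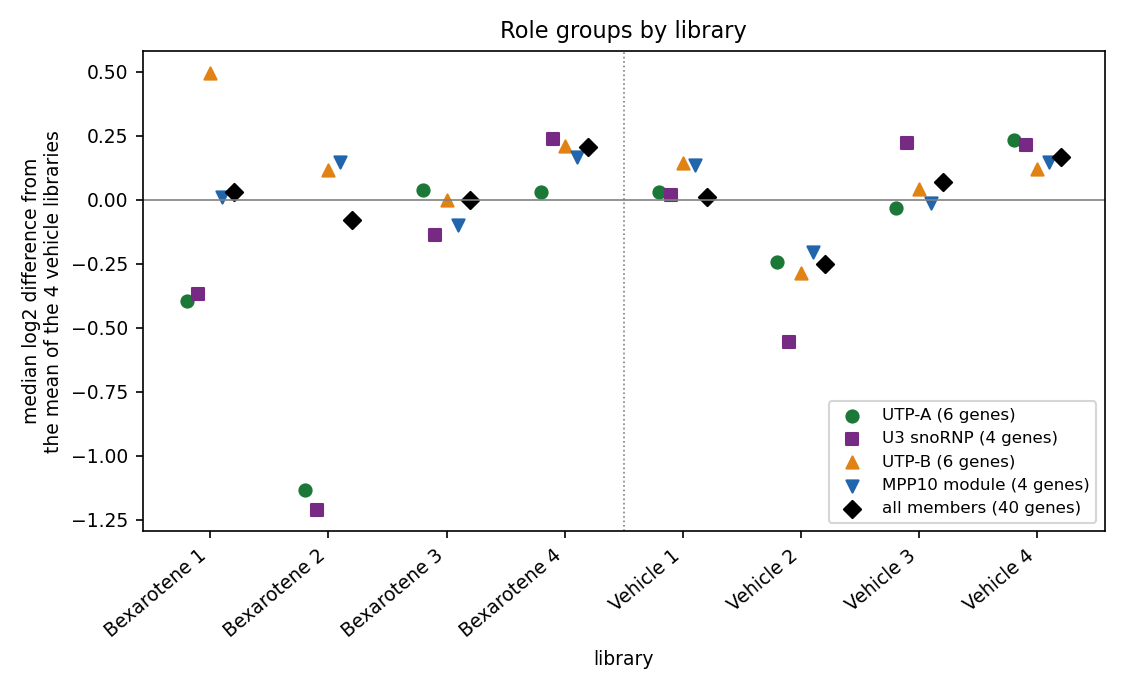
Median log2 difference from the mean of the 4 vehicle libraries (vertical axis) for 4 role groups and for all 40 genes, in each library (horizontal axis, bexarotene on the left of the dotted line and vehicle on the right). In Bexarotene 2 the UTP-A and U3 snoRNP medians are at −1.13 and −1.21, while the UTP-B median is at 0.12 and the median of all 40 genes at −0.08.

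After the mean of each group was taken off, levels of the 40 genes were correlated over the 8 libraries as a description. Over all 780 pairs the median Pearson r was 0.28, and 69.4% of pairs were above 0. The median was 0.59 within UTP-A, 0.54 within the U3 snoRNP, 0.35 within UTP-B and 0.06 within the MPP10 module. The lowest r of a pair was −0.54 within UTP-A, 0.16 within the U3 snoRNP, −0.47 within UTP-B and −0.84 within the MPP10 module. *Nop56*, *Nop58*, *Fbl*, *Wdr43*, *Nol11* and *Utp4*, picked after their values were seen, gave 15 pairs with r between 0.49 and 0.96 (median 0.89). The highest r within UTP-A, 0.98, was that of *Wdr43* with *Wdr75*, which was not among the genes picked. *Tbl3* was most like *Utp15* (r = 0.93), *Emg1* (0.82) and *Pwp2* (0.81), and *Fcf1* was most like *Nop14* (0.88), *Fbl* (0.81) and *Dhx37* (0.80). All genes share the same libraries, depth and scaling, so 1 deviating library such as Bexarotene 2 enters every pair.

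Over the 40 genes the log2 fold change and the GC content of the canonical transcript (GENCODE vM39) had a Pearson r of 0.37 and a Spearman rho of 0.43 across genes, beside 0.25 and 0.26 over the 11218 genes tested that have a value. *Tbl3* (55.5% GC), *Noc4l* (55.4%) and *Imp3* (55.7%), all higher with bexarotene, were among the GC-rich genes, as were *Fbl* (56.9%, log2 fold change −0.21) and *Rrp7a* (55.4%, −0.07), which were lower, and *Nop58* (41.1%), which was lower, was the poorest in GC. *Rrp9* (60.1%), the richest, was at 0.16. Against log2 gene length r was −0.07 and rho −0.21 over the 40 genes, and −0.06 and −0.03 over all genes. Genes are not independent replicates, and whether GC content has a part in the differences was not tested.

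**Figure D5:**
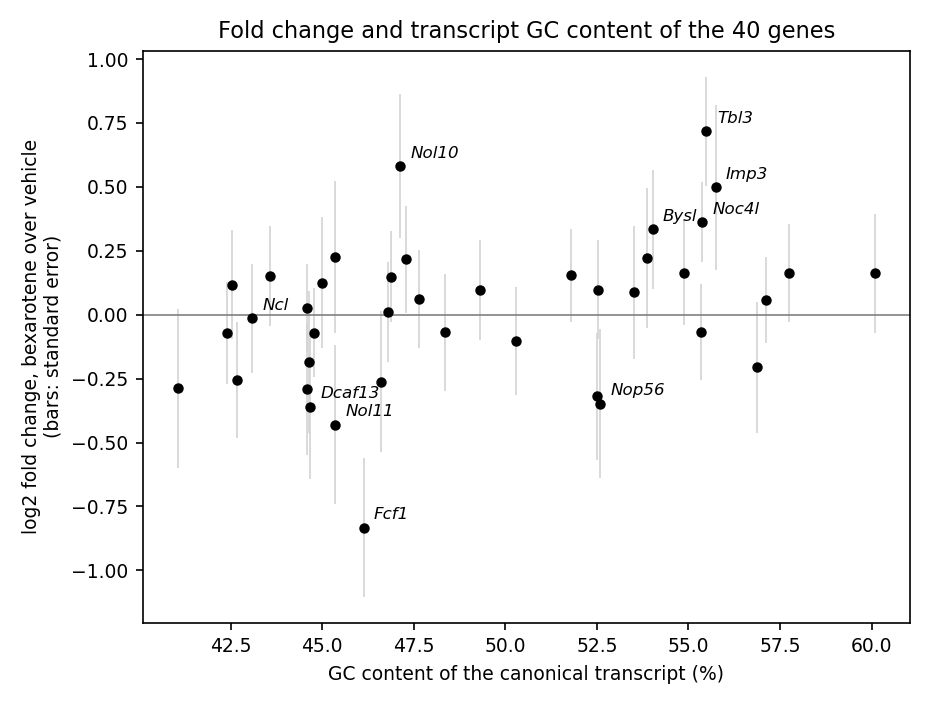
The log2 fold change of each of the 40 genes, bexarotene over vehicle, on the TMM scale (vertical axis, bars for the standard error) against the GC content of its canonical transcript in percent (horizontal axis). *Tbl3*, *Imp3* and *Noc4l* lie at the upper right, *Fcf1* and *Nol11* lie low on the left of the range, and the points scatter widely around r = 0.37.

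The 40 genes lie on 18 chromosomes. In GENCODE vM39, 26 of them have an exon that overlaps the span of a gene on the other strand. Whether it also overlaps an exon of that gene was not checked. The sources used here do not say whether the counting used strand, so reads of such partners may be mixed with those of the named gene. *Tbl3* overlaps *Noxo1*, an oxidase subunit gene, which had 0 to 3 counts per library. *Fcf1* overlaps *Arel1*, a ubiquitin ligase gene, which was at 3.94, 2.53, 5.64 and 5.38 CPM in Bexarotene 1 to 4, against 6.12, 6.02, 5.73 and 5.66 CPM in Vehicle 1 to 4 (log2 fold change −0.32, SE 0.21). *Noc4l* has no such partner. Whether reads of a partner have a part in the level of any of these genes was not tested. Small nucleolar RNA genes lie within 4 of the 40 genes, 15 in all, with 5 in *Nop56*, 4 in *Nop58*, 3 in *Ncl* and 3 in *Wdr43*.

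Lists of other genes of the pathway also had medians near 0. Of 33 tested of 34 other small-subunit assembly factors, 20 were higher and 13 lower (median 0.10, from −0.53 to 0.79). Genes of each pathway list were named only where the average log2 CPM reached 1, and of these *Tsr1* (0.39) and *Nol7* (0.38) were highest and *Snu13* (−0.42), the box C/D protein that binds U3 first, and *Esf1* (−0.40) were lowest. Of 47 tested of 48 large-subunit assembly factors, 25 were higher and 22 lower (median 0.01), with *Pelp1* (1.07) and *Nip7* (0.59) high and *Nsa2* (−0.55) and *Lyar* (−0.31) low. Of 16 tested of 17 genes of RNA polymerase I and its factors, 9 were higher and 7 lower (median 0.02), with *Taf1c* (0.28) and *Polr1d* (0.26) high and *Taf1d* (−0.28) and *Polr1f* (−0.47) low, where *Polr1f* is a polymerase subunit. In these 3 lists the groups did not overlap for *Polr1f*, which was lower (1.42% of all genes), and for *Rrp12* (0.28) and *Senp3* (0.55), which were higher (1.41% of all genes). None of these genes passed an adjusted p under 0.05 in edgeR, and at an unadjusted p under 0.05 only 3 large-subunit factors, all higher, did. Of all 11616 genes tested, 277 passed the unadjusted threshold as higher and 151 as lower, and nothing is read from the 3.

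The 8 genes of the box H/ACA snoRNP, which guides pseudouridine formation, and the nucleophosmins were even (4 higher and 4 lower, median 0.06), with *Npm1* (0.73) and *Npm3* (0.15) high and *Dkc1* (−0.39), the pseudouridine synthase, and *Nop10* (−0.49) low. *Npm1*, the most common nucleophosmin, averaged 193 ± 106 CPM with bexarotene and 116 ± 21.0 CPM with vehicle (SD, n = 4 each), a difference smaller than the spread among the bexarotene mice. Of 7 tested of 8 genes of MYC and its regulators, 2 were higher and 5 lower (median −0.12), with *Mxd1* (0.10) high and *Max* (−0.17) and *Mxd4* (−0.44) low. *Myc* itself averaged 34.7 ± 7.22 CPM with bexarotene and 31.0 ± 2.71 CPM with vehicle (SD, n = 4 each, log2 fold change 0.15). In edgeR 0 genes of these 2 lists passed an adjusted or an unadjusted p under 0.05.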

How the data were processed

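Per the labels, ribosomal RNA was to be removed from the RNA of 8 tumor-bearing skins, and libraries kept strand. The authors trimmed reads (Trimmomatic 0.30), checked them (FastQC 0.11.9), aligned them to GRCm39 (HISAT2, 2.0.1 in the submitters' processing notes, another version in the methods) and counted them per gene (HTSeq 0.6.1). The deposited values were whole-number counts with no scaling or filter. The strand setting was not given in the sources used here. All per-sample columns of the table were used (0 left out), and 3131 of 55247 rows had no gene name. Within each group no library was a duplicate of another, and pairs across the groups were not checked in this way.

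Low genes were removed by filterByExpr (at least 10 counts, total at least 15), the rest scaled by TMM and tested in R 4.3.3 with edgeR 4.0.16 (quasi-likelihood, two-sided, no covariates, Benjamini-Hochberg over 11616 genes). DESeq2 1.42.0 and limma 3.58.1 (voom with sample weights) were alternatives, with RLE, upper-quartile and total-count scaling, the filter dropped or set to 10 counts in each mouse, no 18S ribosomal RNA and microRNA rows, robust dispersion, the replicate number as a block, libraries left out in turn, and no Bexarotene 1 and 2. The edgeR step was tested on simulated data. Log2 CPM for the heat map, the role medians and the correlations used a prior count of 2. SE was the log2 fold change divided by the root of its F statistic. Poisson intervals cover counting error only. Gene coordinates are those of the deposited table.

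The members, roles, lists and motifs were chosen with earlier results of these data known. Values for each library were given for *Tbl3* and *Fcf1*, the U3 snoRNP genes, the 3 most abundant genes per length, the 5 highest and 5 lowest log2 fold changes where the average log2 CPM reached 1, and genes whose groups did not overlap. In each pathway list the 2 highest and the 2 lowest that reached this average were named, and *Rrp12* and *Senp3* after their values were seen. Canonical lengths and the spread over Bexarotene 3 and 4 alone were added after the data were seen.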

Additional observations from a re-analysis of the deposited data

Results flagged for a closer look

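In 1 of the 80 sets of 4 libraries (40 genes in each of the 2 groups), a single library stood far from the other 3 of its group. *Nol10* was at 15.6 CPM in Bexarotene 2, against 6.79 to 7.89 CPM in the other bexarotene mice. Bexarotene 2 was the shallowest library, and the counting interval of this value was 11.0 to 21.5 CPM. Its log2 fold change was 0.31 without this library, against 0.58 with it. Chance alone flags about 1 in 20 such sets.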

How the results depend on the processing

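No gene and none of the 40 genes passed an adjusted p under 0.05 in edgeR or in any of the 19 alternatives. Scaled by total counts alone, the median log2 fold change of the 40 genes was −0.63 and 0 of 40 were above 0, with all genes at a median of −0.66. Leaving out 1 library moved the median of the 40 genes between −0.03 (without Bexarotene 4) and 0.11 (without Vehicle 1) and the number above 0 between 17 and 27. The number of the 40 genes past an unadjusted p under 0.05 ran from 0 to 6. The share of all genes past it was not taken for every setting, so nothing is read from this range. Of 750 values of single genes under alternatives, 713 were within 1 SD of the reported value and 77 had the other sign. *Fcf1*, *Nol11*, *Dcaf13*, *Nop56* and *Utp11* kept their sign throughout the settings that could be fitted for them. Genes above 0 could not do so, since scaling by total counts put 0 of 40 above 0. *Tbl3*, *Noc4l* and *Nol10*, among others, changed sign in that 1 setting only. Requiring 10 counts in every mouse left 30 of the 40 genes. The groups share replicate numbers, but same-numbered mice did not deviate together (correlations −0.08, −0.09, −0.07 and 0.00). No pairing by number was therefore seen in the levels, though these values cannot tell whether the numbers mark a shared batch. With a replicate block the median was 0.03, 22 of 40 were above 0 and 0 passed the adjusted threshold. Depth in Bexarotene 2 limits every gene under 20 counts there.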
